A study of Mus musculus with 14 samples.

Results

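Of 10 genes of the Wnt pathway followed here, 9 (Rspo1, Rspo2, Rspo3, Draxin, Sfrp1, Sfrp2, Sfrp4, Dkk2 and Dkk3) encode secreted proteins, most of them known to raise or lower the Wnt signal, and Axin2 encodes an intracellular feedback inhibitor. They were matched by symbol in the deposited tables, which list 56953 genes after BaCl2 and 14330 genes after glycerol, and all 10 were measured and tested in both. They were picked in part because Rspo2, Draxin and Sfrp2 were lower in SMA libraries, so the values of these 3 genes are given as a description, with no test of the fall. The libraries are poly(A) RNA-seq of fibro-adipogenic progenitors (FAPs), stromal cells of muscle able to turn into fat or fibrous tissue. FAPs were isolated by MACS, a magnetic sort with antibodies the labels do not name, from injured TA muscle 3 days after injury, and RNA was taken from the fresh cells. After BaCl2, a salt that destroys muscle fibres, there were 3 libraries with the genotype SMA (taken to mean spinal muscular atrophy, a disease of low SMN protein) and 3 of wild-type (WT) mice. After glycerol, an injury followed by more fat, there were 4 SMA and 4 WT libraries. The labels name neither the allele nor the age of the mice, and nothing says that replicates came from separate animals, so p-values measure only the spread between libraries. The batch in the labels is the injury itself, and the pair cannot be told apart.

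Wnt proteins bind frizzled receptors and the co-receptors LRP5 and LRP6 on the cell surface, and the canonical branch then lets beta-catenin build up and switch on target genes. R-spondins amplify this signal by binding LGR receptors and removing ZNRF3 and RNF43, which take frizzled off the surface. SFRP proteins carry a frizzled-like domain that binds Wnt outside the cell, and DKK proteins and DRAXIN act at the co-receptors. Beta-catenin signalling is known to restrain the turn of mesenchymal cells into fat.

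RefSeq promoter sequences (build GRCm38.p6, the 250 bases before the annotated start) matched 5 of the 10 genes: Rspo1, Draxin, Sfrp2, Dkk2 and Axin2. Those of Draxin and Sfrp2 are printed because these genes were lower in every SMA library than in every WT library after BaCl2, and that of Axin2 because it is the textbook target of beta-catenin. Each is written 5′ to 3′ on the strand of the gene, from chr4:148130699-148130948 (minus strand) for Draxin, chr3:83766071-83766320 (plus strand) for Sfrp2 and chr11:108920099-108920348 (plus strand) for Axin2, and lies just upstream of the first exon. Capitals mark matches, on either strand, to the TCF core CTTTGA, to its variant with a last T, CTTTGT, to the TATA box TATAAA, to the GC box GGGCGG or to the box known as CCAAT.
Draxin: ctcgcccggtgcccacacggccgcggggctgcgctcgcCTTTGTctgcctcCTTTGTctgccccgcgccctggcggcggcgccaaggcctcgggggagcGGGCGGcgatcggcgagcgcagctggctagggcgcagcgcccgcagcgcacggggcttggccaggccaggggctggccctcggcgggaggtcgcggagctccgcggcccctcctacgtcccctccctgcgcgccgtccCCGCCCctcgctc
Sfrp2: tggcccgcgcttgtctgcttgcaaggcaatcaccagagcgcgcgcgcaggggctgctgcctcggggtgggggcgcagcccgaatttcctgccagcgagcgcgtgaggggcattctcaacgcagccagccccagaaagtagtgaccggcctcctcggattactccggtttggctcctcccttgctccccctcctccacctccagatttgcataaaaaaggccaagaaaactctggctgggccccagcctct
Axin2: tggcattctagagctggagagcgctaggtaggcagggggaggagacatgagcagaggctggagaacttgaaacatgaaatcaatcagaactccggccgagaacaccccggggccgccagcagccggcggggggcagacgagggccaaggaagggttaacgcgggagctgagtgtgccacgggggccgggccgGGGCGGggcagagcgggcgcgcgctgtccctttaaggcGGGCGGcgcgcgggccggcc
Draxin held 2 matches to CTTTGT, which begin 212 and 199 bases before the start, and 2 to GGGCGG, 151 and 13 bases before it. Axin2 held 2 matches to GGGCGG, 58 and 20 bases before the start, and no TCF core. Sfrp2 held none of these letters in its window. GC content was 79.6% for Draxin, 63.6% for Sfrp2 and 69.2% for Axin2. Among 32851 promoters of the same length, 13.8% held CTTTGA and 16.5% held CTTTGT, while 12.4% held TATAAA, 32.7% held GGGCGG and 33.8% held CCAAT. An E box (CANNTG, left in lower case) was found 1 time in Draxin and in 66.2% of all promoters. A match describes the letters of a window only.

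The libraries after BaCl2 held 97.7 M to 136 M counts (M, mega), and values are given as CPM, counts per M after TMM scaling. Those after glycerol hold the authors' normalized counts, which summed to 71.4 M to 76.6 M per library. Their depth before normalization is unknown, and levels are not comparable between the tables. Smn1, the gene lowered in SMA, was lower in SMA libraries in both, at 11.1 ± 1.001 against 16.1 ± 0.937 CPM (SD, n = 3 each, log2 fold change -0.54, edgeR adjusted p = 0.0131) and at 745 ± 75.9 against 1084 ± 113 normalized counts (SD, n = 4 each, -0.54, limma adjusted p = 0.0364). It stayed under 0.05 in 3 of 6 and in 1 of 8 fits with 1 library left out, and lay between adjusted p = 0.0103 and 0.0752 after BaCl2 and between 0.0217 and 0.113 after glycerol. With libraries scaled to the sum of the FAP markers described below it was at -0.09 (adjusted p = 0.642) after BaCl2 and at -0.45 (adjusted p = 0.118) after glycerol. All 21 FAP markers were measured in both tables, Pdgfra among them at 868 ± 151 CPM in SMA and, in WT libraries, 895 ± 63.8 CPM.

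Summed cell type markers differed by genotype for some cell types and overlapped for others. Of all genes, 4.29% passed an adjusted p under 0.05 after BaCl2 (edgeR) and 2.87% after glycerol (limma). After BaCl2 the summed level of the 21 FAP markers ran from 64431 to 83465 CPM in SMA and from 93393 to 102153 CPM in WT libraries, with 5 markers lower and 0 higher (edgeR, 12 at an unadjusted p under 0.05). Calls among them ran from 0 without WT replicate 2 or WT replicate 3 to 6 without SMA replicate 3. Most of the FAP marker sum came from Col1a1 (20786.3 CPM in SMA, 29118.5 in WT), Col1a2 (19310, 26269.5) and Col3a1 (21281.7, 29943.6). Scaling to this sum therefore mainly follows these collagen genes. The median log2 fold change of the 21 markers was -0.22, with 17 below and 4 above 0. The 16 macrophage markers summed to 2121 to 3196 CPM in SMA, against 1159 to 1626 CPM in WT libraries, with 14 called higher (1 called without WT replicate 3). Ptprc, the pan-leukocyte CD45 gene, read 70.7 ± 5.76 against 37.3 ± 8.81 CPM. After glycerol the FAP sum overlapped between groups (4962150 to 6146630 in SMA, 5086650 to 6821050 in WT), and the macrophage sum was 124610 to 304178 in SMA and 108176 to 139491 in WT libraries, with 7 of 16 markers higher. That count was 0 without SMA replicate 1, 2 or 4 or WT replicate 1, 2 or 3, and 16 without SMA replicate 3. The 10 endothelial markers summed to 8185 to 10525 in SMA and 13455 to 19666 in WT libraries after glycerol, with 4 lower (6 without SMA replicate 3, 0 without any other library). After BaCl2 they summed to 230 to 322 against 130 to 307 CPM, with 0 called (1 at an unadjusted p under 0.05). Satellite cell and myoblast markers summed to 292 to 327 CPM in SMA, against 405 to 458 CPM in WT libraries, after BaCl2, with Des and Vcam1 lower of 8 tested, while Pax7 reached at most 0.124 CPM. Vcam1 alone (256 against 355 CPM) made up most of that sum. Of the 8 tested, 5 had a positive and 3 a negative log2 fold change, with a median of 0.18. Schwann cell markers summed to 41.2 to 45.5 against 25.5 to 31.1 CPM, with 4 of 9 higher (0 without WT replicate 3) and Sox10 at most 0.323 CPM, and neutrophil markers to 19.3 to 37.1 against 9.10 to 13.4 CPM, with 2 of 6 higher (0 without WT replicate 3). After glycerol the neutrophil sums (1376 to 2359 against 805 to 1285) and the pericyte and smooth muscle sums (17796 to 20762 against 23259 to 30557) did not overlap, with 1 of 6 higher and 1 of 9 lower. These counts fell to 0 without SMA replicate 1, 2 or 4 or WT replicate 1, 2 or 3, and the second also without WT replicate 4, and reached 2 and 3 without SMA replicate 3. After BaCl2 the pericyte and smooth muscle sums overlapped, with 1 of 10 higher and 1 lower (8 at an unadjusted p under 0.05). Tenocyte sums overlapped after both injuries, with 0 of 8 called (2 and 1 at an unadjusted p under 0.05). Schwann cell and satellite cell sums overlapped after glycerol, with 0 of 8 called in each (4 and 0 at an unadjusted p under 0.05). The part of these cells in the results below was not tested, and in sorted bulk samples fewer cells of a type and less RNA per cell cannot be told apart.

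After BaCl2 the members split by direction. Rspo2, Rspo3, Draxin, Sfrp1 and Sfrp2 were lower in all 3 SMA libraries than in any WT library, Rspo1 and Axin2 were higher in all 3, and Sfrp4, Dkk2 and Dkk3 overlapped. Of the 20119 genes tested after BaCl2, 25.3% did not overlap between the groups (12.2% higher and 13.1% lower in SMA). Among the members it was 7 of 10, a share set in part by the 3 genes picked for their fall, and 4 of 7 without them. Of all genes, 4.29% passed an adjusted p under 0.05 (2.73% higher and 1.56% lower in SMA). Of the 7 members not picked for a fall 0 passed in edgeR and 1 (Rspo3) passed in DESeq2. At an unadjusted p under 0.05 stood 4 of these 7 (Rspo1, Rspo3, Sfrp1 and Axin2), against 19.3% of all genes. The median log2 fold change was -0.26 over the 10 members, -0.10 over the 7 others and -0.00 over all genes tested.

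**Figure D1:**
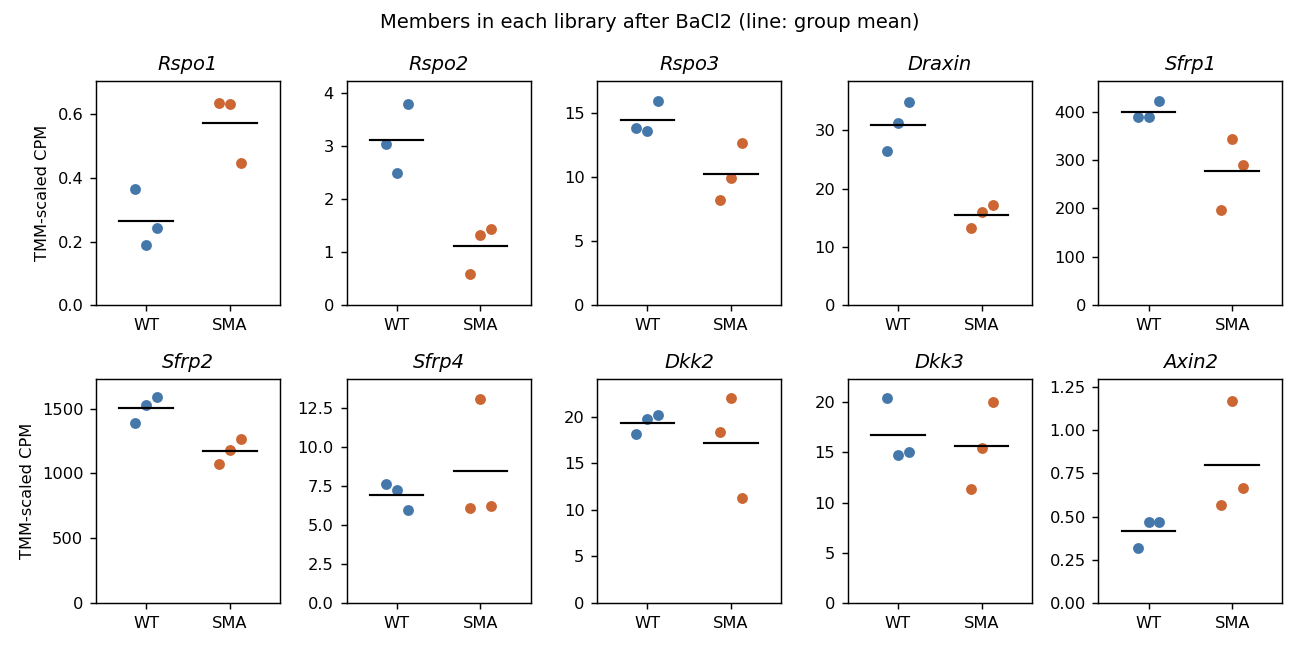
TMM-scaled CPM (y axis, from 0, a separate scale for each gene) of each of the 10 genes in the 3 WT and 3 SMA libraries after BaCl2, with a point for each library and a line at the group mean. The SMA points of Rspo2, Rspo3, Draxin, Sfrp1 and Sfrp2 all lie below the WT points, and those of Rspo1 and Axin2 all lie above them.

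Among the R-spondins after BaCl2, Rspo2 was the member with the largest difference. Rspo2 read 0.588, 1.33 and 1.44 CPM in the SMA libraries (60, 181 and 186 counts) and 3.04, 2.499 and 3.80 CPM in the WT libraries (414, 289 and 503 counts). Every SMA library was below every WT library, and SMA replicate 1 was the lowest. The SMA mean of 1.12 ± 0.463 CPM was 0.362 times the WT mean of 3.11 ± 0.651 CPM on the fitted scale (SD, n = 3 each, log2 fold change -1.46, SE 0.30). Rspo3 read 8.24, 9.94 and 12.7 CPM in SMA, against 13.9, 13.7 and 16.0 CPM in WT libraries. Its groups did not overlap, but the log2 fold change of -0.49 (SE 0.14) did not pass, with an edgeR adjusted p = 0.0886. Rspo3 passed at adjusted p = 0.00659 once SMA replicate 3, its highest SMA library, was left out, and otherwise lay up to 0.287. In the authors' deposited table Rspo3 has a log2 fold change of -0.48 with an adjusted p of 0.0204. Rspo1 was higher in all SMA libraries, at 0.636, 0.633 and 0.448 CPM in SMA (65, 86 and 58 counts) and 0.367, 0.190 and 0.241 CPM in WT libraries (50, 22 and 32 counts). The groups were apart by a log2 fold change of 1.10 (SE 0.36), which did not pass (edgeR adjusted p = 0.123). So Rspo2 and Rspo3 were lower and Rspo1 higher in SMA after BaCl2. Rspo2 was picked for its fall, and Rspo1 and Rspo3 did not pass, so this split is a description. The most abundant R-spondin gene per length, Rspo3, had the smallest fold change of the family.

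Draxin, which encodes a secreted axon guidance protein that also antagonises Wnt, stood at 13.3, 16.0 and 17.1 CPM in SMA, against 26.4, 31.3 and 34.9 CPM in WT libraries. The groups did not overlap, at 15.5 ± 1.97 and 30.9 ± 4.27 CPM (SD, n = 3 each). The SMA level was 0.502 times the WT level (log2 fold change -0.99, SE 0.12). With any 1 library left out the fold change stayed between -1.10 and -0.89.

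The secreted frizzled-related genes differed among themselves. Sfrp2, the most abundant member, read 1075, 1183 and 1267 CPM in SMA, against 1385, 1526 and 1591 CPM in WT libraries. All SMA values were below all WT values, by a log2 fold change of -0.35 (SE 0.08) between means of 1175 ± 96.3 and 1501 ± 106 CPM (SD, n = 3 each). Sfrp1 read 197, 343 and 291 CPM in SMA, against 389.6, 388 and 422 CPM in WT libraries. SMA replicate 1 was again the lowest, the SMA libraries spread more (SD 73.9 CPM) than the WT libraries (SD 19.1 CPM), and the difference of -0.53 (SE 0.16) did not pass (edgeR adjusted p = 0.0960). Sfrp4 read 6.10, 13.1 and 6.21 CPM in SMA, against 7.61, 7.24 and 5.98 CPM in WT libraries. Only SMA replicate 2 was high, and the log2 fold change of 0.29 (SE 0.26, edgeR adjusted p = 0.615) turned to -0.17 without it.

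The Dickkopf genes overlapped between genotypes after BaCl2. Dkk2, which encodes a ligand of LRP6, read 18.4, 22.0 and 11.3 CPM in SMA, against 18.2, 19.8 and 20.2 CPM in WT libraries (log2 fold change -0.17, SE 0.19, edgeR adjusted p = 0.698). Dkk3, the divergent member of the family, read 11.4, 15.5 and 20.0 CPM in SMA, against 20.4, 14.8 and 15.03 CPM in WT libraries (-0.10, SE 0.19, edgeR adjusted p = 0.841). Dkk2 had SMA libraries on either side of the WT range, and Dkk3 had 1 SMA library below it. Without SMA replicate 3 Dkk2 changed sign to 0.07, and Dkk3 did so without SMA replicate 1 (0.09) or WT replicate 1 (0.07).

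Axin2, an inhibitor of beta-catenin that the pathway itself induces and so its common readout, was the least abundant member per length after BaCl2. It read 0.568, 1.17 and 0.665 CPM in SMA (58, 159 and 86 counts) and 0.315, 0.467 and 0.468 CPM in WT libraries (43, 54 and 62 counts). All SMA libraries were higher than all WT libraries, with a log2 fold change of 0.95 (SE 0.34) that did not pass (edgeR adjusted p = 0.160). SMA replicate 2 alone gave more than 1 CPM, and without it the fold change was 0.57 (adjusted p = 0.497).

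In SMA replicate 1, the library with the lowest FAP marker sum (64431 CPM) and the highest macrophage marker sum (3196 CPM), Rspo2, Rspo3, Draxin, Sfrp1 and Sfrp2 were all at their lowest of the 6 libraries. Scaling the libraries to the FAP marker sum in place of TMM moved the median log2 fold change of all genes after BaCl2 to 0.44, and 43.6% of all genes then passed as higher and 0.124% as lower in SMA. On that scale Rspo2 (-1.07) and Draxin (-0.56) were still lower in SMA, Rspo3 (-0.08) and Sfrp1 (-0.10) lay near 0, and Sfrp2 changed sign to 0.08. Relative to the shifted median all 5 stayed below the middle of the genes. Rspo1 (1.54, edgeR adjusted p = 0.00798), Axin2 (1.39, 0.00626) and Sfrp4 (0.73, 0.0214) were among those past the threshold on that scale, while Dkk2 and Dkk3 turned to 0.30 each.

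After glycerol the members looked different. Sfrp2 was again lower in every SMA library and Dkk3 was higher in every SMA library, and the other 8 members overlapped between genotypes. That is 2 of 10 without overlap, a share set in part by Sfrp2, which was picked for its fall. Without the picked genes it was 1 of 7 (14.3%), against 14.1% of the 14330 genes tested (6.59% higher and 7.54% lower in SMA). Of all genes 2.87% passed an adjusted p under 0.05 (1.7% higher and 1.17% lower in SMA). In limma 0 of the 7 members not picked for a fall passed, and 1 of them (Dkk3) stood at an unadjusted p under 0.05, against 23.3% of all genes. The log2 fold change was positive for 7 members and negative for 3, among them Rspo2 at -0.00. Its median was 0.28 over the members, 0.38 over the 7 not picked for a fall and -0.00 over all genes.

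**Figure D2:**
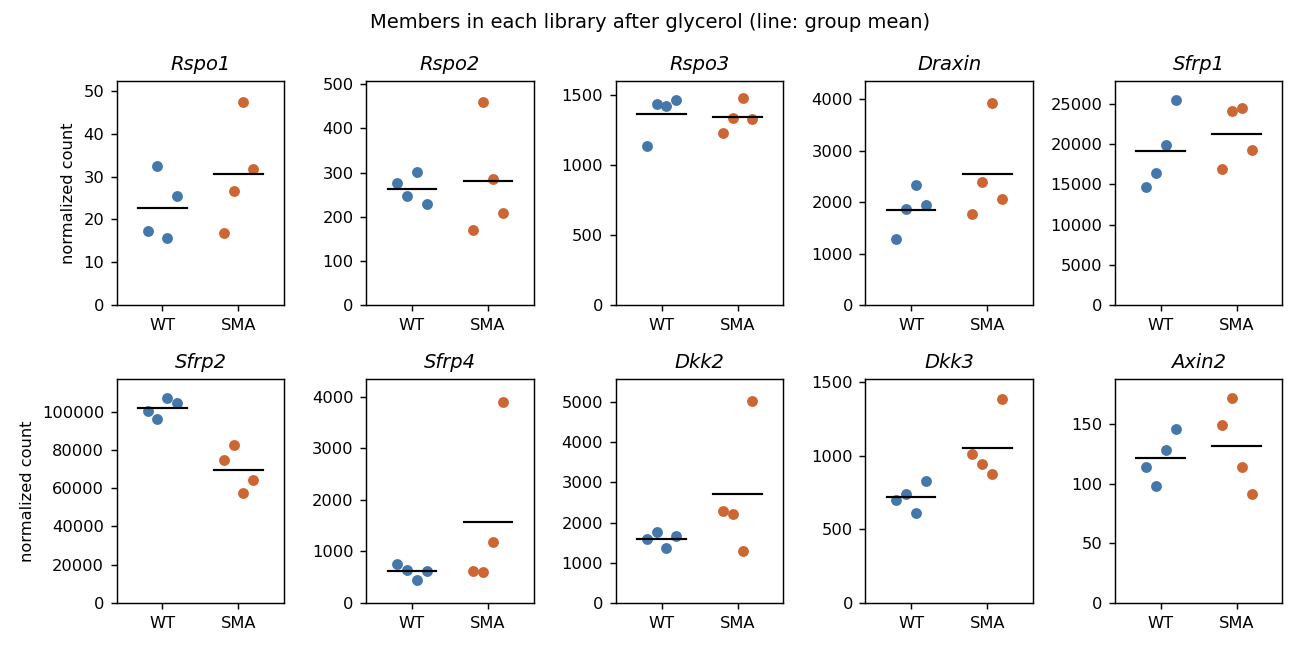
The authors' normalized counts (y axis, from 0, a separate scale for each gene) of the 10 genes in the 4 WT and 4 SMA libraries after glycerol, with a point for each library and a line at the group mean. The SMA points of Sfrp2 lie below all WT points and those of Dkk3 above them, and SMA replicate 4 stands high in Sfrp4 and Dkk2.

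The R-spondins overlapped between genotypes after glycerol. Rspo2 read 171, 459, 285 and 208 normalized counts in SMA and 275, 246, 300.3 and 230 in WT libraries, so the WT values lay inside the SMA range (log2 fold change -0.00, SE 0.27). Rspo3 read 1228, 1340, 1478 and 1326 in SMA and 1136, 1435, 1425 and 1465 in WT libraries (-0.02, SE 0.10, limma adjusted p = 0.931). Rspo1 read 16.9, 26.7, 47.3 and 31.8 in SMA and 17.2, 32.5, 15.8 and 25.4 in WT libraries (0.38, SE 0.37, limma adjusted p = 0.569). Rspo3 was the tightest of the family and Rspo1 the lowest and loosest.

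Draxin after glycerol was at 1779, 2391, 3939 and 2062 normalized counts in SMA and 1291, 1863, 2340 and 1943 in WT libraries. The groups overlapped and the SMA mean was the higher (2543 ± 964 against 1859 ± 432, SD, n = 4 each, log2 fold change 0.41, SE 0.25). SMA replicate 3 was the highest library, and without it the fold change was 0.18.

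Sfrp2 was the only member to lie lower in all SMA libraries after both injuries. After glycerol it read 74479, 82379, 57503 and 64430 normalized counts in SMA and 100131, 96105, 107081 and 104717 in WT libraries. The highest SMA value was below the lowest WT value, and the SMA level was 0.677 times the WT level (log2 fold change -0.56, SE 0.10, -0.47 on the FAP marker scale). Sfrp1, its close relative, overlapped, at 16917, 24119, 24515 and 19274 in SMA and 14658, 16389, 19842 and 25483 in WT libraries (0.17, SE 0.18, limma adjusted p = 0.616). Sfrp4 read 629, 595, 1187 and 3893 in SMA and 765, 629, 438 and 611 in WT libraries (0.94, SE 0.53, limma adjusted p = 0.318). SMA replicate 4 was the highest library, and the Sfrp4 difference was 0.35 without it.

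Dkk3 after glycerol read 1011, 944, 880 and 1387 normalized counts in SMA and 697, 739, 614 and 830 in WT libraries. All 4 SMA libraries were above all 4 WT libraries, at means of 1055 ± 227 and 719.8 ± 89.8 (SD, n = 4 each, log2 fold change 0.54, SE 0.15), which did not pass (limma adjusted p = 0.0813). It passed without SMA replicate 3 (0.62, adjusted p = 0.0342) and on the FAP marker scale (0.63, adjusted p = 0.00998), and the authors' deposited table gives 0.55 with an adjusted p of 0.0103. Dkk2 read 2295, 2212, 1283 and 5030 in SMA and 1590, 1763, 1372 and 1669 in WT libraries (0.59, SE 0.34, limma adjusted p = 0.323). The same library, SMA replicate 4, was the highest, and without it the Dkk2 fold change was 0.23. That library also had the highest macrophage (304178) and neutrophil (2359) marker sums after glycerol and the highest FAP marker sum of the SMA libraries (6146630). SMA replicate 4 was also the highest SMA library for Sfrp4 and Dkk3, and the part of those cells was not tested.

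Axin2 after glycerol read 149, 172, 114 and 91.7 normalized counts in SMA and 114, 97.9, 128 and 146 in WT libraries. The values interleaved (log2 fold change 0.09, SE 0.22, limma adjusted p = 0.843). SMA replicates 1 and 2 were the highest libraries and SMA replicate 4 the lowest.

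The genotype difference was then compared between the injuries as glycerol minus BaCl2, on 13960 genes tested in both, of which 10.5% passed. Sfrp1 was the only member outside the 3 picked genes to pass, with a difference of 0.70 (SE 0.24, 95% interval 0.23 to 1.16, z test adjusted p = 0.0384), from -0.53 after BaCl2 to 0.17 after glycerol. This call ended in 9 of 14 fits with 1 library left out, namely without BaCl2 SMA replicate 1 (adjusted p = 0.1005), BaCl2 WT replicates 1, 2 and 3 (0.0564, 0.0598 and 0.0951), glycerol SMA replicates 2 and 3 (0.0991 and 0.0688) or glycerol WT replicates 1, 2 and 3 (0.112, 0.0761 and 0.0593). It also ended with DESeq2 for BaCl2 (adjusted p = 0.127) and on the FAP marker scale (0.36, adjusted p = 0.201). For Rspo2 the difference was 1.46 (SE 0.41) and for Draxin 1.41 (SE 0.28). Both rest on the BaCl2 fall that chose these genes and are given as descriptions. For Sfrp2 it was -0.21 (SE 0.13), with an interval from -0.46 to 0.05, and on the FAP marker scale it was -0.55. These values are likewise descriptions of a gene picked for its fall.

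**Figure D3:**
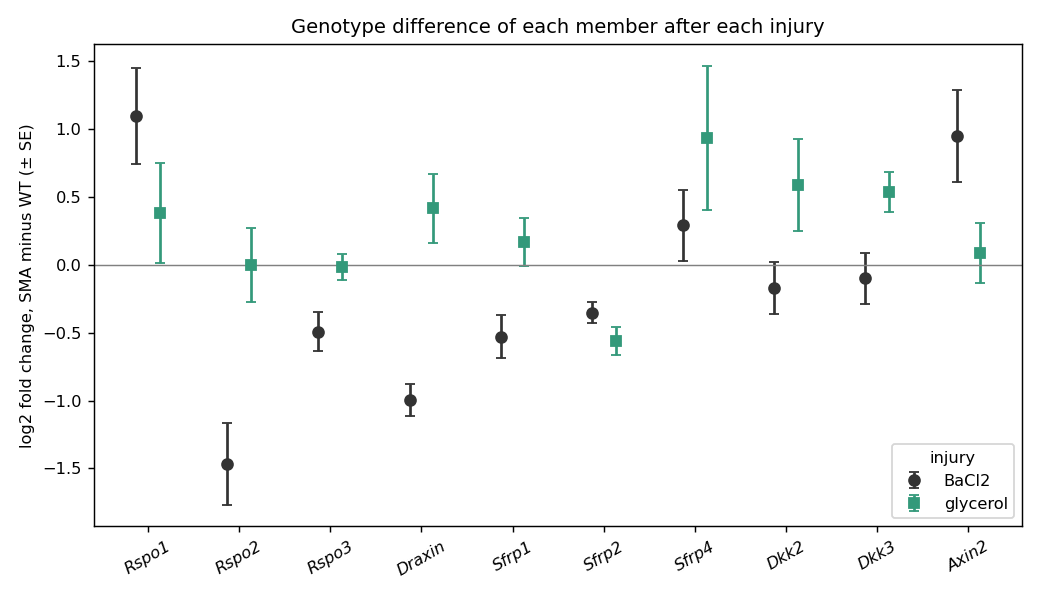
Log2 fold change of SMA over WT (y axis) for each of the 10 genes after BaCl2 (circles, n = 3 each) and glycerol (squares, n = 4 each), with bars of 1 standard error. Rspo2 lies at -1.46 after BaCl2 and at -0.00 after glycerol, Draxin at -0.99 and 0.41, and Sfrp2 below 0 in both.

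The remaining differences did not pass. Rspo3 had 0.48 (interval 0.14 to 0.81, z test adjusted p = 0.0543) and Dkk3 0.64 (0.16 to 1.11, adjusted p = 0.0657). Rspo3 passed without BaCl2 SMA replicate 3 (0.65, adjusted p = 0.000750), glycerol SMA replicate 1 (0.0393) or glycerol WT replicates 2 or 4 (0.0427 and 0.0435). Dkk3 passed without BaCl2 SMA replicate 3 (0.85, adjusted p = 0.00267), glycerol SMA replicate 3 (0.0282) or glycerol WT replicate 4 (0.0435). Dkk2 had 0.76 (interval 0.00 to 1.52, adjusted p = 0.204) and passed only without glycerol SMA replicate 3 (1.06, adjusted p = 0.0137). Axin2 had -0.86 (-1.66 to -0.06, adjusted p = 0.162) and passed on the FAP marker scale (-1.21, adjusted p = 0.0450). Rspo1 had -0.71 (-1.72 to 0.29, adjusted p = 0.407) and Sfrp4 0.65 (-0.51 to 1.80, adjusted p = 0.538). The intervals of Rspo1 and Sfrp4 are wide enough to hold both 0 and differences of more than 1 on the log2 scale.

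**Figure D4:**
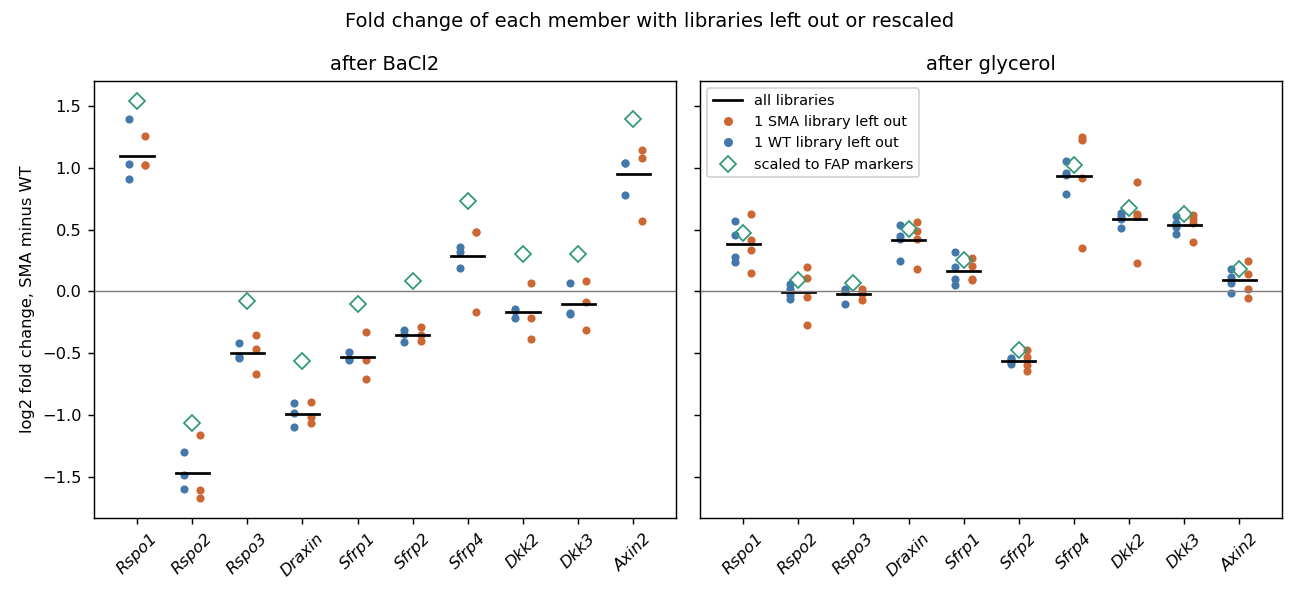
Log2 fold change of SMA over WT (y axis) for each gene after BaCl2 (left) and glycerol (right), with all libraries (line), with 1 SMA or 1 WT library left out (filled points) and with libraries scaled to the FAP marker sum (diamonds). Draxin stays between -1.10 and -0.89 after BaCl2 with any library left out, and Sfrp4 and Dkk2 after glycerol drop to 0.35 and 0.23 without SMA replicate 4.

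Levels were compared between genes per kb of exon (GENCODE vM21), in WT libraries. After BaCl2 Sfrp2 led at 697 CPM per kb, followed by Sfrp1 at 91.5. Draxin (5.93 ± 0.820), Dkk2 (5.23 ± 0.287), Dkk3 (4.98 ± 0.950) and Rspo3 (4.70 ± 0.420) followed with overlapping ranges (SD, n = 3), so their order is not resolved. Sfrp4 (1.66), Rspo2 (0.608), Rspo1 (0.137) and Axin2 (0.0757) came last, each below the range of the gene before it. After glycerol the order began again with Sfrp2 (47380 normalized counts per kb) and Sfrp1 (4367). Rspo3 (442 ± 49.8), Dkk2 (431 ± 45.1) and Draxin (357 ± 83.1) overlapped (SD, n = 4), as did Dkk3 (214) and Sfrp4 (146), and Rspo2 (51.4), Axin2 (22.1) and Rspo1 (11.7) were again the lowest. By mean level over all libraries, not per length, Sfrp2 was at percentile 99.7 of the genes tested after BaCl2 and 99.5 after glycerol, while Rspo2 was at 40.3 and 23.9. The inhibitors Sfrp1 and Sfrp2 thus stood far above all R-spondins per length after both injuries.

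The genes whose pattern over libraries was most like that of the 3 picked members were read from Pearson's r on log2 levels, as the highest smaller r of the 6 BaCl2 and 8 glycerol libraries. For Sfrp2 these were Mettl9 (r = 0.94 and 0.97), Tusc3 (0.93 and 0.94) and Ifi27 (0.94 and 0.93). Draxin was followed by Mylk (0.97 and 0.93), Fgfr2 (0.90 and 0.92) and Serpina3c (0.95 and 0.91), and Rspo2 by Rdm1 (0.95 and 0.85), Tctn1 (0.94 and 0.82) and Mc2r (0.78 and 0.92). Within the members, Sfrp2 and Draxin ran together over the BaCl2 libraries (r = 0.98) but not over the glycerol libraries (r = -0.59). Rspo2 and Rspo3 likewise had r = 0.95 after BaCl2 and 0.17 after glycerol. The libraries of an injury share their scaling and the split by genotype, so these are descriptions.

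The other genes of the pathway were read from 8 lists written from general knowledge, 89 genes in all. After BaCl2 3 of 70 tested genes rose and 5 fell, with 62 not past the threshold, against 4.29% of all genes. On the FAP marker scale 28 were called higher and 0 lower, against 43.6% and 0.124% of all genes. The median on that scale was 0.34, against 0.44 for all genes. Under TMM scaling the median log2 fold change was -0.10, and 28 of 70 had an unadjusted p under 0.05, against 19.3% of all genes. Of 53 genes with an adjusted p in the authors' deposited table, calls numbered 11, against 13.8% of all genes tested that have one there. The 8 calls depended on single libraries. All 8 were lost without WT replicate 3, 7 without SMA replicate 2 or WT replicate 2, 3 (Wls, Sfrp5 and Tle4) without SMA replicate 1 and 2 (Wls and Wif1) without WT replicate 1, while 16 calls were made without SMA replicate 3. After glycerol 0 of 66 passed in limma (11 at an unadjusted p under 0.05, against 23.3% of all genes, and 8 of 66 past 0.05 in the authors' deposited table, against 12.5%), with a median of 0.01 and 0 to 4 calls as libraries were left out. The difference between injuries passed for 12 of 66 (9 higher and 3 lower, glycerol minus BaCl2), against 10.5% of all genes.

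**Figure D5:**
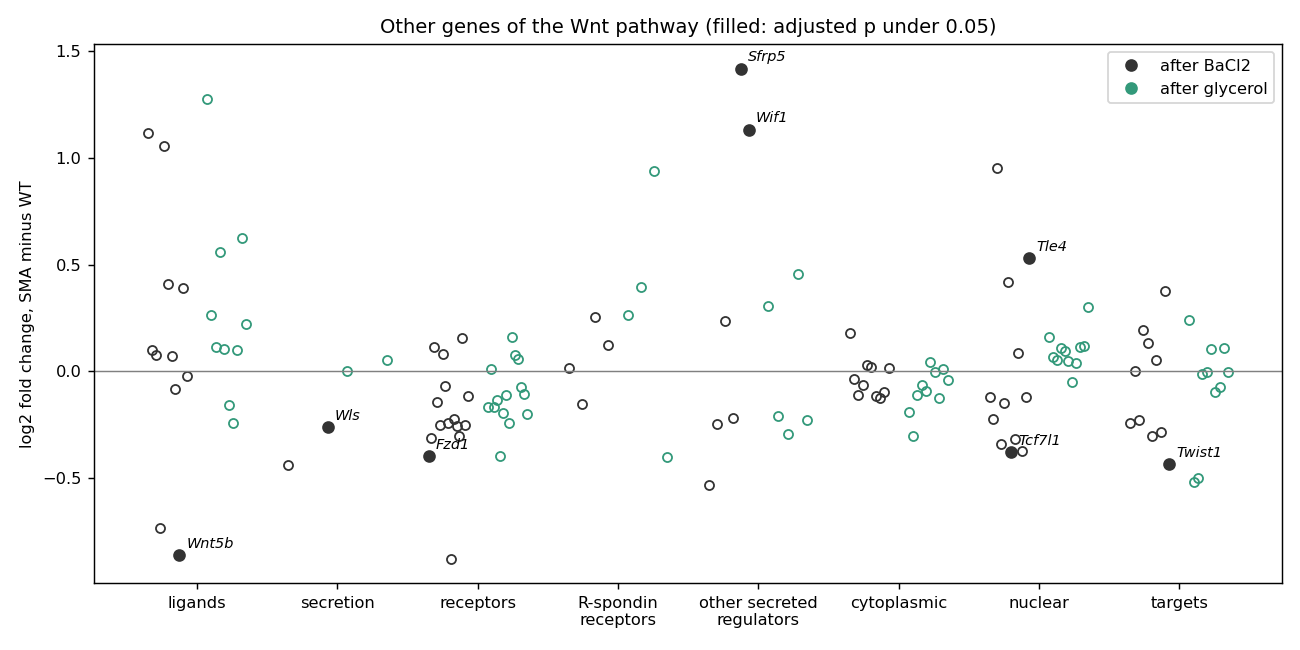
Log2 fold change of SMA over WT (y axis) of the other Wnt pathway genes in 8 lists (x axis) after BaCl2 (dark) and glycerol (green), with a point for each gene, filled and named where the adjusted p is under 0.05. The 8 filled points are all from BaCl2, with Sfrp5 and Wif1 the highest at 1.42 and 1.13 and Wnt5b the lowest of them at -0.86.

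Of the ligands after BaCl2, 1 of 11 fell (edgeR, 2 at an unadjusted p under 0.05). Wnt5b, a ligand of the branch without beta-catenin, was at 3.98 ± 0.411 in WT and at 2.19 ± 0.118 CPM in SMA libraries (SD, n = 3 each, log2 fold change -0.86, edgeR adjusted p = 0.0123, 0.00826 to 0.0684 with a library left out). The most abundant ligands after BaCl2, Wnt5a (47.8 ± 4.52 in WT and 45.2 ± 2.41 CPM in SMA, adjusted p = 0.646) and Wnt11 (22.5 ± 2.91 and 23.8 ± 3.77 CPM, adjusted p = 0.800), did not pass. Of the genes for Wnt release, Wls, the carrier of Wnt proteins to the surface, fell by 0.26 (adjusted p = 0.0451, 0.0237 to 0.176 with a library left out), and the Wnt acyltransferase gene Porcn was at -0.44 (adjusted p = 0.131). Wls and Porcn both had an unadjusted p under 0.05 (edgeR). After glycerol Wnt5b (0.10), Wls (0.05) and Porcn (0.00) lay near 0. The difference between injuries passed for Wnt5b (0.96, z test adjusted p = 0.000443) and Wls (0.31, adjusted p = 0.00142).

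Of the receptors after BaCl2, 1 of 15 fell, the frizzled gene Fzd1, from 132 ± 5.25 to 100.5 ± 11.5 CPM (SD, n = 3 each, -0.40, edgeR adjusted p = 0.0272, 0.00380 to 0.132 with a library left out). At an unadjusted p under 0.05 (edgeR) stood 7 of the 15 receptors, against 19.3% of all genes. The co-receptor gene Lrp6 (-0.26, adjusted p = 0.436) and the Wnt receptor kinase gene Ryk (-0.11, adjusted p = 0.456) did not pass. Of the genes through which R-spondins act, 0 of 4 passed (0 also at an unadjusted p under 0.05). Lgr4, their main receptor by level here, read 27.4 ± 2.22 CPM in SMA, against 27.0 ± 1.87 CPM in WT libraries, and Znrf3 8.77 ± 0.651 and 8.04 ± 0.648 CPM. After glycerol Znrf3 was at -0.40 (limma adjusted p = 0.0695), and its difference between injuries passed (-0.52, z test adjusted p = 0.00817).

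Among the other secreted or surface regulators after BaCl2, 2 of 6 rose and the other 4 did not pass (3 of 6 at an unadjusted p under 0.05). Sfrp5, a further frizzled-related gene, went from 1.47 ± 0.696 to 3.95 ± 0.652 CPM (SD, n = 3 each, 1.42, edgeR adjusted p = 0.0302, 0.0125 to 0.140 with a library left out). Wif1, a Wnt-binding inhibitor, went from 0.590 ± 0.138 to 1.30 ± 0.143 CPM (1.13, adjusted p = 0.0323, 0.0431 to 0.128). These rose where Sfrp1 and Sfrp2 were lower under TMM scaling. Sfrp2 was picked for its fall and Sfrp1 did not pass (edgeR adjusted p = 0.0960), so this contrast is a description. On the FAP marker scale Sfrp5 (1.86) and Wif1 (1.56) stayed higher while Sfrp1 and Sfrp2 lay at -0.10 and 0.08. The macrophage and Schwann cell markers moved the same way as Sfrp5 and Wif1 (14 of 16 and 4 of 9 tested higher, and 1 and 0 without WT replicate 3), and the part of those cells was not tested. The DKK receptor gene Kremen1 was at -0.25 (adjusted p = 0.193) and Frzb, a frizzled-related gene, at -0.53 (adjusted p = 0.420). After glycerol Sfrp5 was at 0.46 and Wif1 at -0.23, and the difference passed for Wif1 (-1.36, z test adjusted p = 0.0135) but not for Sfrp5 (-0.96, adjusted p = 0.268).

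Inside the cell 0 of 10 cytoplasmic genes passed after BaCl2 (edgeR, 1 at an unadjusted p under 0.05), with Ctnnb1, the beta-catenin gene, at 417 ± 15.2 CPM in SMA, against 408 ± 6.94 CPM in WT libraries, and Csnk1a1, a kinase that marks beta-catenin for removal, at -0.06. Of 12 nuclear genes the co-repressor gene Tle4 rose (0.53, edgeR adjusted p = 0.0314, 0.00553 to 0.149 with a library left out) and Tcf7l1, a beta-catenin partner that acts mainly as a repressor, fell (-0.38, adjusted p = 0.0185, 0.0111 to 0.0990). At an unadjusted p under 0.05 (edgeR) stood 7 of the 12 nuclear genes, against 19.3% of all genes. The abundant nuclear genes Bcl9l (-0.22, adjusted p = 0.181) and Tle3 (-0.12, adjusted p = 0.389) did not pass. Of 10 genes known as Wnt targets 1 fell, Twist1, a transcription factor of mesenchymal cells, from 71.7 ± 3.16 to 53.1 ± 1.77 CPM (SD, n = 3 each, -0.43, edgeR adjusted p = 0.00666, up to 0.0569 without WT replicate 3). Of the 10 targets 6 had an unadjusted p under 0.05 (edgeR). The targets Cd44 (0.13, adjusted p = 0.289) and Myc (-0.30, adjusted p = 0.171) did not pass, and the median over the 10 targets was -0.11, beside 0.95 for Axin2. On the FAP marker scale Fzd1 (0.03), Wls (0.18), Tcf7l1 (0.06) and Twist1 (0.01) changed sign, and Wnt5b stayed lower at -0.43 (edgeR adjusted p = 0.0894). The difference between injuries (glycerol minus BaCl2) passed for 10.5% of all genes. It passed for 0 of 10 cytoplasmic genes and for 3 of 11 nuclear genes (3 higher, 0 lower), among them Tcf7l1 (0.43, z test adjusted p = 0.00577). Of 10 targets 4 passed (3 higher, 1 lower), among the higher ones Twist1 (0.43, adjusted p = 0.00200) and Myc (0.41, adjusted p = 0.0174).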

How the data were processed

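The BaCl2 values are read counts per gene as deposited by the authors, with 0 unnamed rows. For glycerol, the deposited signal is a normalized count made by the authors. At most 50.6% of their low values (up to 60) fell on whole steps (tolerance 0.1), so no reads were recovered. The deposited tables also give the authors' log2 fold changes and adjusted p-values, which are printed here only where named. Another 6 per-sample columns were not used. The submitters' processing notes name fastp, Salmon, featureCounts and DESeq2. Their versions and roles, the genome build and the annotation were not given in the sources used here, and strand use in counting is not stated, so overlapping genes may share reads.

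Work was done in R 4.3.3. After BaCl2 the counts were fitted with edgeR 4.0.16 (TMM, filterByExpr with a minimum count of 10, quasi-likelihood F test), with DESeq2 1.42.0 as an alternative. After glycerol log2(value + 1) was fitted with limma 3.58.1 with a trend, so fold changes of low genes are understated. The difference between injuries is a z test on the fold changes of these separate fits. It treats their standard errors as known, although each group had only 3 or 4 libraries. Its p-values may therefore be too small and its intervals too narrow. P-values were adjusted by Benjamini and Hochberg over all genes tested, and the threshold was 0.05. Folds are SMA over WT, each test is two-sided, and the steps were tested on simulated data. A further scale divides by the summed FAP markers, a sum that comes mostly from Col1a1, Col1a2 and Col3a1. The members and lists were chosen with earlier results of these data known. Named were all members, of each Wnt list the genes past the threshold in either injury and the 2 with the highest mean after BaCl2, and set markers. Likeness used log2 levels, with 0.5 added to CPM. The replicate numbers did not pair the libraries.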

Additional observations from a re-analysis of the deposited data

Results flagged for a closer look

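Rspo3 in the WT libraries after glycerol had a lowest value of 1136 normalized counts, apart from the other WT libraries at 1425 to 1465. Its gap to the nearest library took more of the group's range than Dixon's 95% critical value for 4 libraries. No other group of 4 libraries of the 10 genes passed that value, those with the high SMA replicate 4 of Sfrp4 and Dkk2 included, and chance gives about 1 in 20. Without that library the Rspo3 fold change was -0.11 in place of -0.02.

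The genotype difference was not alike between the injuries for Sfrp1 (0.70, glycerol minus BaCl2, z test adjusted p = 0.0384, 0.00385 to 0.112 with a library left out). The same quantity was 1.46 for Rspo2 and 1.41 for Draxin, which follow from the falls for which these genes were picked.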

How the results depend on the processing

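After BaCl2, 863 genes passed (549 higher, 314 lower). The 3 members that passed were the genes picked for their fall, so these calls are no test of the falls. Of the 7 other members 0 passed. Counts of members given here for any setting can include the picked genes and are descriptions. Other settings gave 1698 genes with DESeq2, 1867 genes and 5 members with no filter on low counts, and 8791 genes (8766 higher, 25 lower) and 5 members when scaled to FAP markers. With a library left out the counts ran from 41 to 1577 genes and from 1 to 4 members. After glycerol, 411 genes and 1 member (Sfrp2) passed, against 201 genes where only genes above the median mean were kept, 886 genes (801 higher, 85 lower) and 2 members on the FAP marker scale, and 0 to 1645 genes and 0 to 2 members with a library left out. The difference between injuries passed for 1470 genes and 3 members, against 958 genes with DESeq2 and 1004 to 1969 genes and 2 to 5 members with a library left out. The causes were not tested.

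Directions turned on the FAP marker scale for Sfrp2 (0.083), Dkk2 (0.30) and Dkk3 (0.30) after BaCl2 and for Rspo2 (0.089) and Rspo3 (0.072) after glycerol, and at a pseudocount of 10 for Rspo2 after glycerol (0.00094). With a library left out, Sfrp4 (-0.17 to 0.48), Dkk2 (-0.38 to 0.069) and Dkk3 (-0.31 to 0.086) after BaCl2 and Rspo2 (-0.27 to 0.20), Rspo3 (-0.11 to 0.023) and Axin2 (-0.051 to 0.25) after glycerol turned. Rspo1 and Axin2 after BaCl2 rest on 22 to 159 counts per library, which limits their precision.

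Libraries of the same replicate number shared only a number. Their deviations correlated by -0.10 to 0.07 after BaCl2 and by -0.07 to 0.07 after glycerol. In 2 of the 7 pairs the WT library was the best match of the SMA library among the WT libraries of that injury. With the replicate block 1144 genes and 5 members passed after BaCl2, 257 genes and 1 member after glycerol, and 1940 genes and 5 members for the difference. The block brought Rspo3 (adjusted p = 0.0195) and Sfrp1 (0.0240) after BaCl2, Dkk3 after glycerol (0.0493), and Rspo3 (0.00224) and Dkk3 (0.0179) for the difference past the threshold. Sfrp2, picked for its fall, was no longer among those past it after glycerol.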
